A study of Homo sapiens with 18 samples.

Results

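The suppressor of cytokine signaling (SOCS) family, SOCS1 to SOCS7 and CISH, was described by the DNA methylation around the 5′ ends of its genes. These were taken from a list of names, and each was given a window from 1 kb upstream of its 5′ end in the human reference (GRCh37, GENCODE 44) to 2 kb downstream. They are 8 of the 20163 protein coding genes given such a window. Positions below are in bp from the 5′ end along the gene, and negative positions are upstream.

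The study compared 5 kits that capture methylated DNA with a methyl-CpG binding domain (MBD), MethylMagnet, MethylCollector, MethylCollector Ultra, MethylCap and MethylMiner, on genomic DNA of 3 established human cell lines. HCT15 is a colorectal carcinoma line, and DU145 and PC3 are prostate cancer lines, all grown untreated in the supplier's complete medium. Each kit was applied once to each line, which gave 15 MBD-seq libraries, and each line had 1 library of reduced representation bisulfite sequencing (RRBS), which reads the share of methylated reads at single CpGs near restriction sites. There were thus no replicates of a line within an assay, and every test below compares libraries, not cell lines. Each line stands for itself only as a model of its tumour type.

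Proteins of the SOCS family are induced by cytokines through the JAK-STAT pathway and switch that pathway off again, a negative feedback loop. All carry an SH2 domain, which binds phosphorylated tyrosines, and a SOCS box, which recruits a ubiquitin ligase to the bound protein. Methylation of CpG islands at SOCS1 and SOCS3 has been studied widely in tumours, where a methylated promoter usually goes with a silent gene. No expression was measured in these libraries.

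The RRBS libraries of HCT15, DU145 and PC3 held 2195724, 2398973 and 2377143 CpGs with at least 10 reads, at median coverages of 23, 33 and 26 reads. The 8 windows hold 1525 CpGs in the reference, of which 679, 564 and 684 had at least 10 reads in HCT15, DU145 and PC3, and 537 in all 3 lines. The MBD-seq libraries held between 10040 and 7344098 fragments. At CpGs methylated in a single line, 12 of the 15 MBD-seq libraries were deepest over the CpGs of the line they are labelled with. The 3 exceptions were the MethylMiner libraries, so values from this kit are given apart from those of the other 4.

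CpGs inside the sequences CCGG or TCGA stood apart in the RRBS data. CCGG is the site of MspI, the enzyme usual in this assay, and the enzyme used here is not given in the sources used here. Within the SOCS windows such CpGs averaged 57.4% ± 23.4 (SD, n = 137 CpGs) in HCT15, 54.2% ± 20.3 (n = 125) in DU145 and 54.7% ± 23.7 (n = 140) in PC3, against 14.2% ± 30.7 (n = 542), 3.51% ± 13.7 (n = 439) and 10.9% ± 26.7 (n = 544) at the other CpGs. The same gap was seen around the 5′ ends of all protein coding genes, at 58.7%, 56.5% and 55.9% inside those sequences against 16.2%, 9.45% and 9.38% outside them, in HCT15, DU145 and PC3. Its cause was not tested. Values are therefore given over all CpGs and again over CpGs outside CCGG and TCGA, a choice made after the data had been seen.

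Over all CpGs of a window, 7 of the 8 genes were lowly methylated in HCT15 and PC3 and all 8 in DU145, with window means of at most 20%. Such means were found in 49.6%, 49.8% and 53.7% of all covered gene windows in HCT15, DU145 and PC3. The medians over the 8 genes were 15.2%, 14.2% and 14.6%, beside 20.2%, 20.1% and 18.4% over all windows. The exception was SOCS3, with 52.1% ± 44.7 (SD, n = 143 CpGs) in HCT15 and 41.6% ± 43.2 (n = 147) in PC3, but 14.6% ± 24.2 (n = 105) in DU145. Its range over the 3 lines, 37.5 percentage points, was larger than that of 86.5% of all windows. SOCS5 had the smallest range of the family, 0.71 points, with a smaller range in 5.48% of windows.

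**Figure D1:**
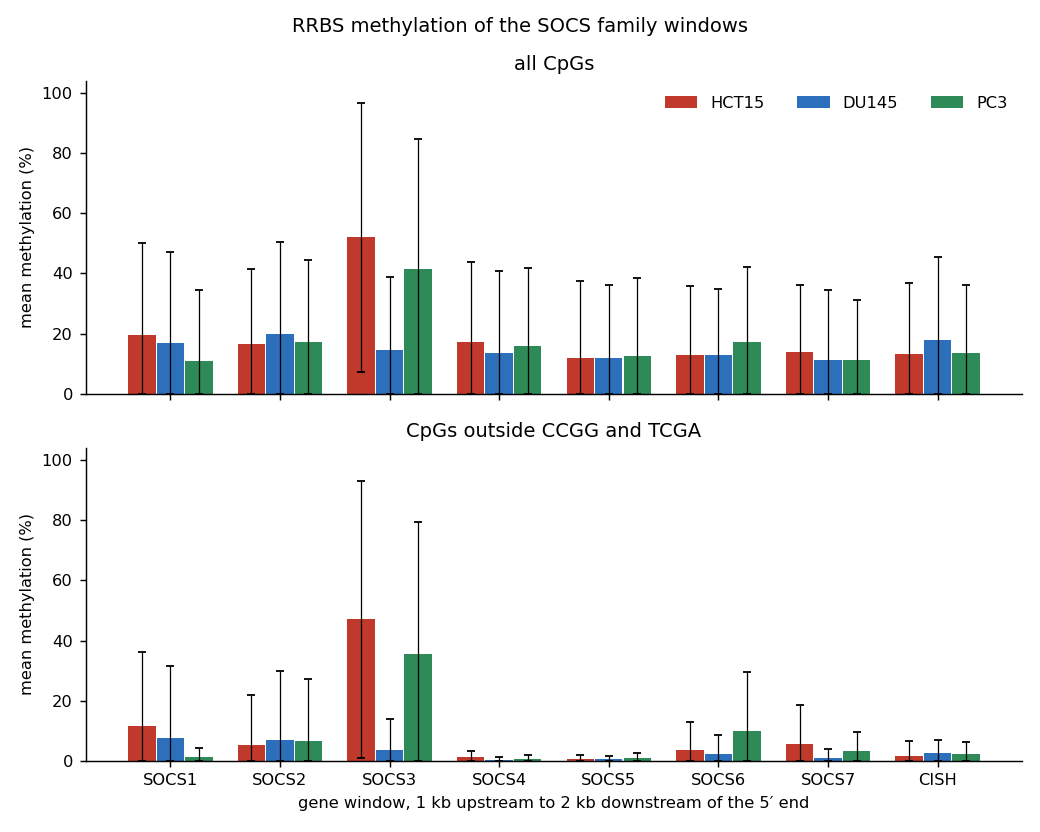
Mean RRBS methylation (%) of each SOCS family window in HCT15, DU145 and PC3, over all CpGs with at least 10 reads (top) and over those outside CCGG and TCGA (bottom). Bars are means over CpGs and error bars the SD over CpGs, not over replicates, drawn down to 0 where they would pass it. SOCS3 stands at 52.1% in HCT15 and 41.6% in PC3 in the top panel, and 47.0% and 35.6% in the bottom one, above all other genes of the family.

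Window means were compared over CpGs covered in both lines and called different at 25 percentage points or more, without a test. SOCS3 was the 1 member called in HCT15 above DU145, where 11.8% of all windows were called, and the 1 member called in PC3 above DU145, where 2.94% were. Over the 105 CpGs shared with DU145, its mean was 65.2% in HCT15 and 53.6% in PC3 against 14.6% in DU145. HCT15 and PC3 differed at SOCS3 by 12.0 points over 143 CpGs. No member was called in the other directions, where 1.63% (DU145 above HCT15), 12.4% (HCT15 above PC3), 1.44% (PC3 above HCT15) and 4.86% (DU145 above PC3) of windows were. Outside SOCS3, the largest window difference was 10.0 points, at SOCS6 between PC3 and DU145.

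Each CpG was also compared between 2 libraries with a two-sided Fisher's exact test on its methylated and unmethylated reads, adjusted by Benjamini-Hochberg over all CpGs of the genome covered in both, and called at an adjusted p below 0.05 and 25 points. Of 560 CpGs of the family tested between HCT15 and DU145, 71 were called higher in HCT15 and 4 in DU145, against backgrounds of 7.18% and 6.95% of all CpGs tested. SOCS3 held 61 of the 71. Between HCT15 and PC3, 46 of 652 were called higher in HCT15 and 9 in PC3, against 11.3% and 3.8%. Between DU145 and PC3, 9 of 537 were called higher in DU145 and 63 in PC3, against 12.1% and 3.38%, and 51 of the 63 lay in SOCS3. CpGs of 1 sequenced fragment share reads, so the CpGs of a stretch are not independent counts.

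SOCS1 and SOCS3 are the members that inhibit Janus kinases directly. SOCS3, which acts at receptors of the interleukin-6 family, lies on the minus strand of chromosome 17 and its CpG island reached from -646 to 1735. The 300 bases at the start of its intron and the 300 bases at the start of its coding sequence are printed with every CpG in capitals, since HCT15 stood above both other lines over the former and DU145 below both over the latter. The intron stretch lies at chr17:76355531-76355830 and the coding stretch at chr17:76354877-76355176 (GRCh37, minus strand, 5′ to 3′).
SOCS3 intron start: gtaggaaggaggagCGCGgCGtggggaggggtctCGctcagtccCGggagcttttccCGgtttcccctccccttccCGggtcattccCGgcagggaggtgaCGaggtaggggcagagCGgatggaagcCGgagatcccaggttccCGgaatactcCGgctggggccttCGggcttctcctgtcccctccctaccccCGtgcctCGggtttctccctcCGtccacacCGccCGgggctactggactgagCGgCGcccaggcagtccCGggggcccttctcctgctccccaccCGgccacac
SOCS3 coding start: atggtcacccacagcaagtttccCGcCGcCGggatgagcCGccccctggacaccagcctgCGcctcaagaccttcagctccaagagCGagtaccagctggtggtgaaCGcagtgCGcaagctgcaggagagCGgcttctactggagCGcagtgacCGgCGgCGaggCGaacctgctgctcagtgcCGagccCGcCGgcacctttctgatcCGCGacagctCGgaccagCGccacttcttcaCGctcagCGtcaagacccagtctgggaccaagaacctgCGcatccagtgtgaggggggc

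Over the 9 CpGs of the printed intron outside CCGG and TCGA that were covered, methylation averaged 59.5% in HCT15, 0.631% in DU145 and 2.0% in PC3. Over the 14 such CpGs of the printed coding stretch it averaged 97.8% in HCT15, 5.79% in DU145 and 98.2% in PC3. The start of the intron was thus methylated in HCT15, and the start of the coding sequence in both HCT15 and PC3. The stretches named for SOCS3 and the other genes were delimited after their values had been seen, so no test is given for them.

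Along SOCS3, methylation outside CCGG and TCGA was near 0 upstream of the gene in all 3 lines and rose downstream at different positions. From -989 to -32 it averaged 0.433% ± 1.19 (SD, n = 38 CpGs) in HCT15, 0.908% ± 1.41 (n = 22) in DU145 and 1.41% ± 3.05 (n = 38) in PC3. From 25 to 219, in the untranslated first exon, it averaged 5.61% ± 7.65 (n = 20), 0.559% ± 0.510 (n = 5) and 0.710% ± 1.53 (n = 20). No CpG there passed 25.9% in any line.

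From 266 to 555, across the end of the first exon and the start of the intron, HCT15 had 69.6% ± 26.8 (SD, n = 15 CpGs), DU145 0.568% ± 0.694 (n = 10) and PC3 1.20% ± 1.71 (n = 15). Single CpGs of HCT15 ranged from 11.5% to 100% over this stretch. From 647 to 767, further into the intron, HCT15 had 97.2% ± 4.47 (n = 16), DU145 1.34% ± 0.978 (n = 16) and PC3 75.2% ± 15.9 (n = 16). PC3 thus joined HCT15 there, while DU145 stayed near 0. From 907 to 979, in the untranslated start of the second exon, the means were 98.5% ± 2.59, 0.931% ± 1.96 and 93.1% ± 8.32 over 10 CpGs each.

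In the coding sequence, from 1006 to 1300, HCT15 had 98.0% ± 3.48, DU145 6.58% ± 7.68 and PC3 98.3% ± 2.37 (SD, n = 15 CpGs each). From 1537 to 1576, near the end of the coding sequence, the means were 90.9% ± 9.82, 36.9% ± 29.6 and 93.2% ± 2.12 (n = 4 each). DU145 was methylated at single CpGs there, up to 78.0% (32 of 41 reads) at 1562.

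The rise was placed at the first CpG of at least 80% in a line and the covered CpG before it. In HCT15, 7 of 27 reads were methylated at 219 (25.9%, Wilson 95% interval 13.2 to 44.7) and 25 of 27 at 266 (92.6%, 76.6 to 97.9). In PC3, 2 of 78 reads were methylated at 555 (2.56%, 0.706 to 8.88) and 63 of 70 at 647 (90.0%, 80.8 to 95.1). Both steps lay within the island, and the step of PC3 lay further downstream than that of HCT15. The intervals given here and below cover counting error only, since reads copied in PCR are not independent molecules.

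**Figure D2:**
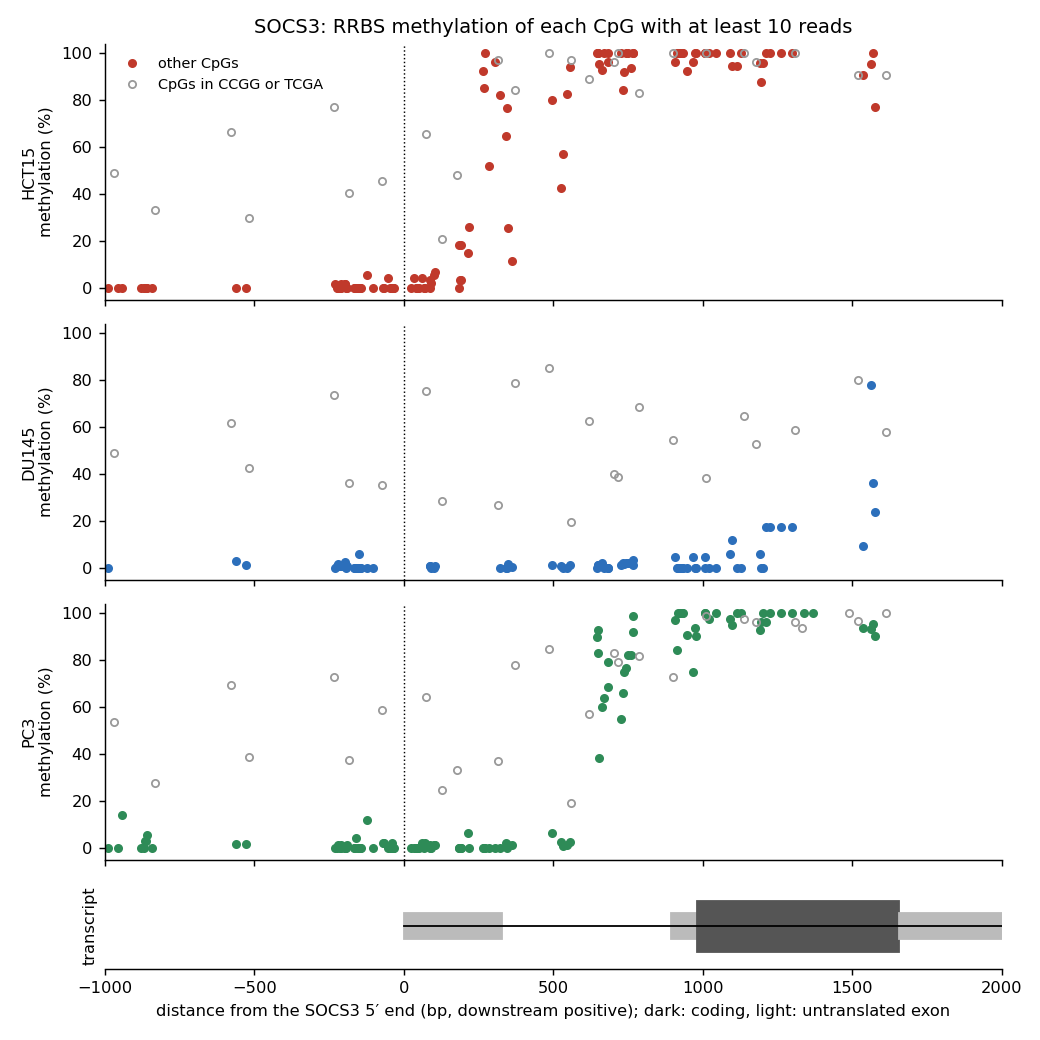
RRBS methylation (%) of each SOCS3 CpG with at least 10 reads against its distance from the 5′ end (bp) in HCT15, DU145 and PC3, with filled points for CpGs outside CCGG and TCGA and open grey points for those inside. The lower track gives the transcript, with coding exon in dark and untranslated exon in light. Filled points rise between 219 and 266 in HCT15 and between 555 and 647 in PC3, and stay below 20% in DU145 up to 1300.

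The largest SOCS3 difference between HCT15 and DU145 among called CpGs was at 1129, in the coding sequence, with 19 of 19 reads methylated against 0 of 17 (adjusted p = 3e-09, Fisher's exact test). Between HCT15 and PC3 it was at 271, in the first exon, with 27 of 27 against 0 of 29 (adjusted p = 7.8e-15, Fisher's exact test). Between DU145 and PC3 it was at 1203, with 0 of 17 against 27 of 27 (adjusted p = 4.7e-11, Fisher's exact test). Outside CCGG and TCGA, 52 of 82 SOCS3 CpGs were called higher in HCT15 than in DU145, 19 of 118 higher in HCT15 than in PC3 and 44 of 82 higher in PC3 than in DU145, where 9.71%, 14.4% and 4.22% of all such CpGs of the genome were called. In the opposite directions SOCS3 had 0 called CpGs, against 7.01% (DU145 above HCT15), 4.11% (PC3 above HCT15) and 13.2% (DU145 above PC3).

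Over 9 values, the means of 3 segments of 1 kb in 3 lines, the windows nearest to SOCS3 among 2897 windows with enough CpGs were those of FGFR2 (root mean square difference 4.62 points), GLIS1 (7.71) and C3orf80 (10.6). The likeness is a description over 3 libraries.

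SOCS1, on the minus strand of chromosome 16, was unmethylated around its 5′ end and methylated further down its island, which reached from -834 to 1568. From -644 to 247, CpGs outside CCGG and TCGA averaged 0.534% ± 1.25 (SD, n = 51) in HCT15, 1.84% ± 3.07 (n = 40) in DU145 and 0.851% ± 1.78 (n = 46) in PC3. The stretch that follows lies in the coding sequence, at chr16:11349062-11349311 (GRCh37, minus strand), and is printed with CpGs in capitals because HCT15 and PC3 parted over it.
SOCS1 coding: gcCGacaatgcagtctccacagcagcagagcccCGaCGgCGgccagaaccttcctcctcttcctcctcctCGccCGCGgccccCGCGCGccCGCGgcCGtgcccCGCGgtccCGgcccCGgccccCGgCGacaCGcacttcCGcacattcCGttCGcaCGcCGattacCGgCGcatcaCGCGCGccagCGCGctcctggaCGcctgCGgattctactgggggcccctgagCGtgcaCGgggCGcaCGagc
From 821 to 857 the 11 covered CpGs averaged 47.6% ± 5.24 in HCT15, between 34.6% and 53.8%, and 2.52% ± 4.60 in PC3. DU145 had no CpG with 10 reads there. HCT15 was thus read near the middle of the scale over this stretch.

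In the 3′ untranslated region of SOCS1, from 1370 to 1403, the order of the lines was another one. Over 5 CpGs, HCT15 had 93.1% ± 6.58 (SD), DU145 93.0% ± 13.3 and PC3 6.02% ± 6.53. At 1370, 35 of 35 reads were methylated in HCT15, 23 of 23 in DU145 and 0 of 13 in PC3 (adjusted p = 1.7e-10 for HCT15 against PC3 and 1e-08 for DU145 against PC3, Fisher's exact test). Over the window, SOCS1 averaged 19.7% ± 30.5 (SD, n = 117 CpGs) in HCT15, 17.0% ± 30.2 (n = 89) in DU145 and 10.9% ± 23.6 (n = 111) in PC3, and 11.5%, 7.70% and 1.26% outside CCGG and TCGA. Called CpGs were 16 of 111 higher in HCT15 than in PC3 and 6 of 87 higher in DU145 than in PC3. Of all CpGs tested, 11.3% and 12.1% were called in these directions. RMI2 on the opposite strand overlaps the whole window, and RRBS reads belong to both genes alike.

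CISH and SOCS2 bind activated cytokine and growth hormone receptors rather than the kinases. CISH averaged 13.2% ± 23.5 (SD, n = 63 CpGs) in HCT15, 18.0% ± 27.4 (n = 39) in DU145 and 13.5% ± 22.7 (n = 63) in PC3, and 1.71%, 2.50% and 2.26% outside CCGG and TCGA. It had 1 called CpG in the 3 comparisons, at -724, with 6 of 21 reads methylated in HCT15 and 1 of 44 in PC3 (28.6% and 2.27%, adjusted p = 0.025, Fisher's exact test). Its promoter, at chr3:50649206-50649455 (GRCh37, minus strand), is printed because it holds 4 matches, in capitals, of TTCNNNGAA, where N is any base, the palindrome bound by dimers of STAT factors. The motif reads the same on both strands, so each match was counted once. Of the stretches of 250 bases upstream of all 20163 genes, 6.0% hold at least 1 match. A match is a run of letters and no evidence of binding.
CISH promoter: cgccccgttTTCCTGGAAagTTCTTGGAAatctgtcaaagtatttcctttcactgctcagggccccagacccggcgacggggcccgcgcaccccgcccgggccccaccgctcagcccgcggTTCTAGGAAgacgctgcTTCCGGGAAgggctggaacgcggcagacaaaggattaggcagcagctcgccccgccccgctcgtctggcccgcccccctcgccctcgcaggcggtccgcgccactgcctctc
The 7 covered CpGs of this promoter outside CCGG and TCGA averaged 0.0% in HCT15 and 1.30% in PC3. DU145 had no CpG with 10 reads in it, and 39 covered CpGs in the window against 63 in each of the other lines.

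SOCS2, which restrains growth hormone signalling, averaged 16.5% ± 24.9 (SD, n = 71 CpGs) in HCT15, 19.9% ± 30.5 (n = 73) in DU145 and 17.2% ± 27.3 (n = 79) in PC3, and 5.29%, 6.99% and 6.57% outside CCGG and TCGA. Upstream, from -829 to -757, 3 CpGs were methylated in all lines, at 60.0% ± 20, 94.4% ± 4.81 and 86.7% ± 23.1 (SD), each on 10 to 24 reads. From 284 to 1983 the means were 2.01% ± 9.04 (n = 50), 1.74% ± 7.92 (n = 50) and 2.36% ± 8.48 (n = 57). The 1 called CpG, at -757, had 4 of 10 reads methylated in HCT15 and 14 of 14 in DU145 (adjusted p = 0.012, Fisher's exact test).

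The canonical transcript of SOCS2 starts 2861 bp downstream of the gene's 5′ end, beyond the window. From -1000 to -401 relative to that start, 36 CpGs outside CCGG and TCGA averaged 1.63% ± 2.97 (SD) in HCT15, 0.405% ± 1.25 in DU145 and 0.893% ± 1.31 in PC3. From 650 to 849 after it, 14 CpGs averaged 27.3% ± 13.5 in DU145 and 1.80% ± 2.87 in PC3, and the 1 CpG covered in HCT15 was read as 100%. From 1200 to 1249 after it, 2 CpGs averaged 94.3% in HCT15, 91.5% in DU145 and 0.962% in PC3. PC3 was the low line at these CpGs, as it was in the 3′ untranslated region of SOCS1. A window at the canonical start gave 20.5%, 20.4% and 12.4% for HCT15, DU145 and PC3.

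SOCS4 to SOCS7 have longer amino-terminal parts, and SOCS6 and SOCS7 are known for binding the insulin receptor pathway. At SOCS6, on chromosome 18, the lines differed upstream of the gene. The sequence from -750 to -501, at chr18:67955531-67955780 (GRCh37, plus strand), is printed with CpGs in capitals because it holds this difference.
SOCS6 upstream: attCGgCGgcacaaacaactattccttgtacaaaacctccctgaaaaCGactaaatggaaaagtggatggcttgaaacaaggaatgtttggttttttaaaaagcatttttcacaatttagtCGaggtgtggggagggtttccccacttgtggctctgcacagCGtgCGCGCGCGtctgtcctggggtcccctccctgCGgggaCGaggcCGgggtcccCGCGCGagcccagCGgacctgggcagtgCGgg
From -588 to -504, CpGs outside CCGG and TCGA averaged 15.4% ± 17.7 (SD, n = 12) in HCT15, 8.06% ± 12.0 (n = 11) in DU145 and 52.4% ± 14.4 (n = 12) in PC3. From -496 to -399 the means fell to 1.78% ± 2.81, 1.04% ± 1.93 and 9.68% ± 10.7 (n = 8 each), and from 192 to 1062 to 0.794% ± 1.76 (n = 47), 0.668% ± 1.31 (n = 31) and 0.495% ± 1.23 (n = 48). PC3 was thus methylated toward the upstream edge of the island, which began at -749.

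At -530 of SOCS6, 26 of 45 reads were methylated in PC3 (57.8%, Wilson 95% interval 43.3 to 71.0), 0 of 31 in HCT15 and 0 of 24 in DU145 (adjusted p = 3.3e-07 for HCT15 against PC3, Fisher's exact test). At -588, 30 of 44 were methylated in PC3, 8 of 28 in HCT15 and 2 of 54 in DU145 (adjusted p = 8e-11 for DU145 against PC3, Fisher's exact test). Called CpGs were 8 of 82 higher in PC3 than in HCT15 and 11 of 63 higher in PC3 than in DU145. Of all CpGs tested, 3.8% and 3.38% were called in these directions. Also called were 3 of 63 higher in HCT15 than in DU145, where 7.18% of all CpGs were. Against PC3, 1 of 82 was called higher in HCT15 and 1 of 63 in DU145, beside 11.3% and 12.1%. The window means were 13.0% ± 22.7 (SD, n = 82 CpGs), 12.8% ± 22.1 (n = 64) and 17.1% ± 24.9 (n = 94) in HCT15, DU145 and PC3, and 3.53%, 2.35% and 9.83% outside CCGG and TCGA.

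SOCS7, on the plus strand of chromosome 17, differed inside its first coding exon. From 969 to 1164, CpGs outside CCGG and TCGA averaged 29.6% ± 17.4 (SD, n = 11) in HCT15, 2.43% ± 6.47 (n = 11) in DU145 and 1.12% ± 2.37 (n = 9) in PC3. At 1137, 42 of 85 reads were methylated in HCT15 (49.4%, Wilson 95% interval 39.0 to 59.8), 0 of 194 in DU145 and 0 of 90 in PC3 (adjusted p = 2.5e-24 and 3.7e-15, Fisher's exact test). Upstream, where the first such CpG covered lay at -126, PC3 had 10.6% ± 8.72 (n = 13), HCT15 0.185% ± 0.717 (n = 15) and DU145 0.624% ± 0.869 (n = 15). Over the window the means were 13.8% ± 22.5 (n = 88), 11.1% ± 23.4 (n = 89) and 11.4% ± 19.7 (n = 67) in HCT15, DU145 and PC3.

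SOCS4 and SOCS5, which are known for acting on the epidermal growth factor receptor, had no called CpG in any comparison, of 23 to 26 and 82 to 89 CpGs tested. SOCS4 averaged 17.2% ± 26.5 (SD, n = 26 CpGs), 13.7% ± 27.0 (n = 23) and 15.8% ± 25.9 (n = 34) in HCT15, DU145 and PC3, and 1.18%, 0.428% and 0.694% outside CCGG and TCGA. SOCS5 averaged 12.0% ± 25.6 (n = 89), 12.0% ± 24.3 (n = 82) and 12.7% ± 25.7 (n = 89), and 0.434%, 0.711% and 1.06% outside CCGG and TCGA. At these CpGs no value of SOCS5 passed 8.33% and none of SOCS4 passed 5.56%.

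**Figure D3:**
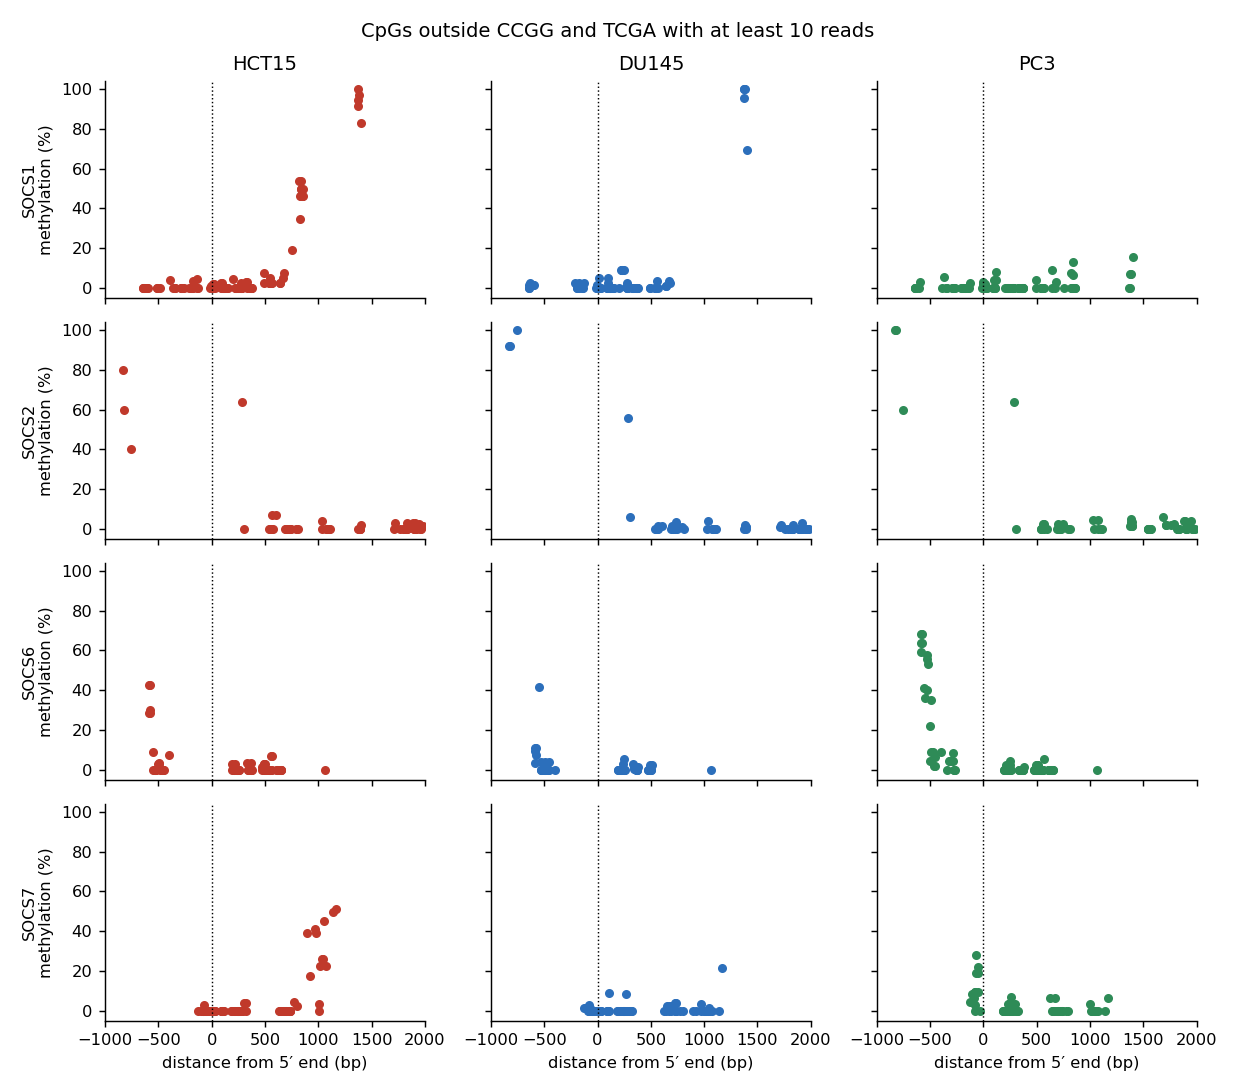
RRBS methylation (%) of each CpG outside CCGG and TCGA with at least 10 reads against its distance from the 5′ end (bp), for SOCS1, SOCS2, SOCS6 and SOCS7 (rows) in HCT15, DU145 and PC3 (columns). SOCS1 CpGs around 1370 are high in HCT15 and DU145 and low in PC3, SOCS6 CpGs around -530 reach 68.2% in PC3, and SOCS7 CpGs around 1137 reach 51.2% in HCT15.

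MBD-seq counts captured fragments, and a fragment that overlapped a window was counted once. Over the SOCS3 window, the fragments in HCT15, DU145 and PC3 numbered 4, 0 and 16 with MethylMagnet and 12, 0 and 7 with MethylCollector. They numbered 19, 0 and 18 with MethylCollector Ultra and 36, 1 and 11 with MethylCap. These kits thus gave at least 4 fragments in HCT15 and PC3 and at most 1 in DU145, from libraries of unequal size. MethylMiner gave 16, 10 and 13.

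The MethylCap fragments lay where RRBS read methylation. From 250 to 1749 of SOCS3 there were 34 in HCT15 (8.75 per 1000000 fragments of the library, exact Poisson 95% interval 6.06 to 12.2), 0 in DU145 and 11 in PC3 (11.6 per 1000000, 5.78 to 20.7). Against the 3 counts that a count of 0 allows in DU145, this was at least 2.40-fold higher in HCT15 and at least 3.18-fold higher in PC3, the counting error of the higher values apart. From -1000 to 249 there were 3, 1 and 0. DU145 had 0 fragments from 250 to 1749 also with MethylMagnet, MethylCollector and MethylCollector Ultra, where its libraries held 10040, 29613 and 30336 fragments in all and a difference was hardly detectable at this depth.

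At SOCS1, fragments from 750 to 1499 with MethylCap numbered 13, 7 and 0 in HCT15, DU145 and PC3. Per 1000000 fragments of the library, HCT15 had 3.35 (exact Poisson 95% interval 1.78 to 5.72). DU145 had 8.50 (3.42 to 17.5) and PC3 had 0 (0 to 3.88). The intervals of HCT15 and DU145 both overlap that of PC3, so they do not separate PC3 from either line at this depth. With MethylCollector Ultra the fragments numbered 12, 1 and 1, with MethylCollector 7, 1 and 0 and with MethylMagnet 2, 0 and 1. HCT15 had the most fragments in all 4 kits, before scaling to library size. Per 1000000 fragments, HCT15, DU145 and PC3 stood at 26.4, 33.8 and 0 with MethylCollector and at 18.4, 33.0 and 1.73 with MethylCollector Ultra. MethylMagnet gave 33.3, 0 and 4.13. After scaling, DU145 was thus the highest line with MethylCap, MethylCollector and MethylCollector Ultra, on 1 fragment with each of the last 2, and the lowest with MethylMagnet. From -1000 to 749, MethylCap gave 0, 1 and 0.

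**Figure D4:**
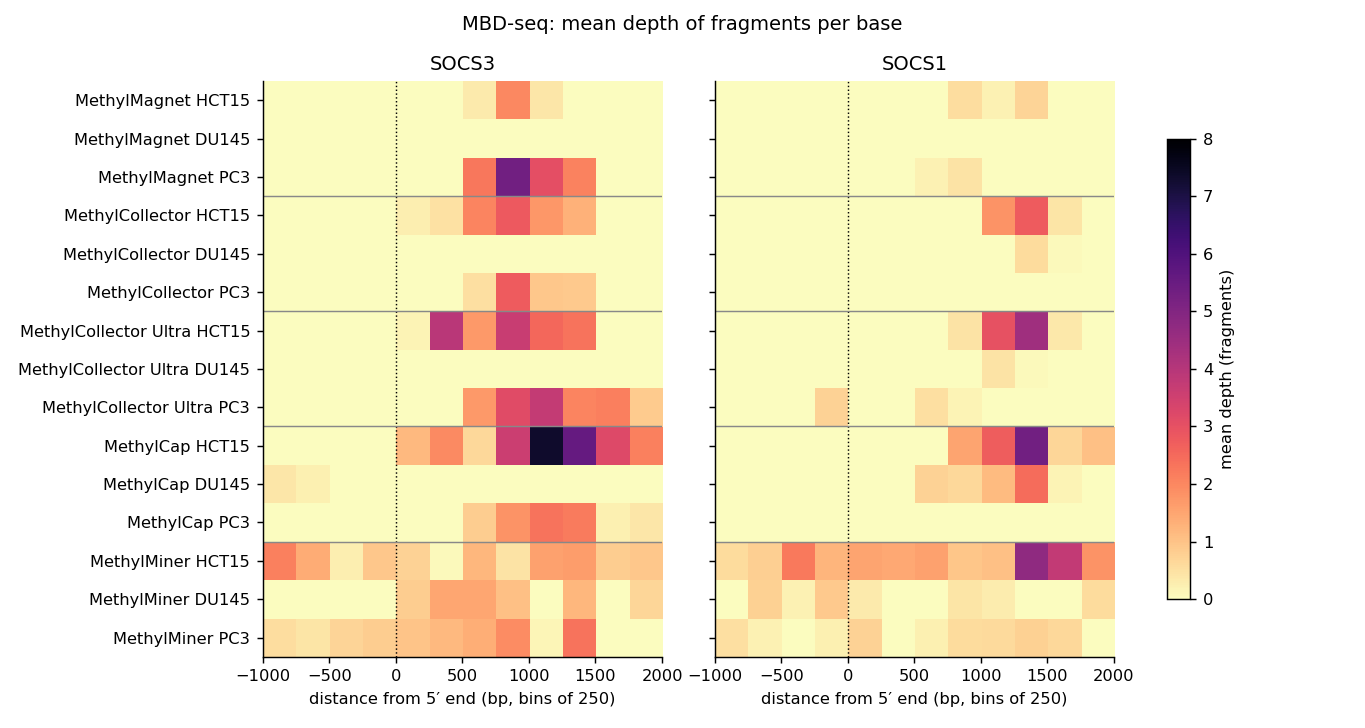
Mean depth of MBD-seq fragments per base in bins of 250 bp against the distance from the 5′ end (bp) of SOCS3 and SOCS1, for the 5 kits in HCT15, DU145 and PC3, not scaled to library size. The deepest bin reaches 7.34, for MethylCap in HCT15 at SOCS3, while the DU145 rows of MethylMagnet, MethylCollector and MethylCollector Ultra are at 0 throughout SOCS3.

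Window fragments of the MethylCap libraries were compared with a two-sided exact binomial test given the library totals, adjusted by Benjamini-Hochberg over all gene windows with at least 5 fragments. Of the 8 members, 4 were tested between HCT15 and DU145, 5 between HCT15 and PC3 and 3 between DU145 and PC3. None of these was called at an adjusted p below 0.05 and 2-fold. The shares of all windows called were 0.0255% (HCT15 above DU145), 0.161% (DU145 above HCT15), 0.371% (HCT15 above PC3), 0.903% (PC3 above HCT15), 0.135% (DU145 above PC3) and 0.135% (PC3 above DU145). SOCS3 was 7.63-fold higher in HCT15 than in DU145 (exact p = 0.015, adjusted p = 0.42), and 1 fragment in DU145 stood against 11 in PC3 (exact p = 0.0079, adjusted p = 0.22). SOCS1 had 7 in DU145 against 0 in PC3 (exact p = 0.0047, adjusted p = 0.18). These 3 were the member windows with an unadjusted p below 0.05. The share of all windows below it is not given, so no difference is read from them.

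The lines were also paired within the 5 kits, on window fragments per 1000000 and with a two-sided exact permutation test over kits. The smallest p that 5 kits allow is 0.0625, so none of the 24 comparisons of a gene between 2 lines could pass 0.05. At SOCS3, PC3 was above DU145 in 5 of the 5 kits (mean difference, DU145 minus PC3, -38.5 per 1000000, exact p = 0.0625) and HCT15 above DU145 in 4 (29.6 per 1000000, exact p = 0.125). DU145 had 0 fragments at SOCS3 with MethylMagnet, MethylCollector and MethylCollector Ultra. A count of 0 there allows up to 299, 101 and 98.9 per 1000000, above HCT15 and PC3 with the same kit. These kits thus cannot order DU145 against the other lines. At SOCS1, HCT15 was above PC3 in 5 (15.1 per 1000000, exact p = 0.0625). With MethylCollector, the 0 of PC3 allows up to 35.3 per 1000000, above the 26.4 of HCT15. The kits are different assays rather than replicates. The median of fragments per gene window was 0 in every line with MethylMagnet and MethylCollector, and in DU145 with MethylCollector Ultra.

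With MethylMiner, SOCS4 had 4 fragments in HCT15 and 10 in PC3 (0.545 and 4.78 per 1000000, exact binomial test, adjusted p = 0.017), where 1.27% of windows were called in either direction. No SOCS4 CpG was called by RRBS. The 2 Mb around SOCS4 held 779.4, 851.5 and 1388 MethylMiner fragments per 1000000 in HCT15, DU145 and PC3, and their part in the difference was not tested. No member was called by MethylMiner in the other pairs, of 8 tested between HCT15 and DU145 and 7 between DU145 and PC3. Of all windows, 0.423% (HCT15 and DU145) and 0.191% (DU145 and PC3) were called there.

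The remaining genes had few fragments in the 4 other kits. SOCS2 had 7, 0 and 2 MethylCap fragments in HCT15, DU145 and PC3, of which 6, 0 and 2 lay between -1000 and -501, around its upstream methylated CpGs. Downstream of the canonical start of SOCS2, from 500 to 1999, MethylCap gave 15, 0 and 0. CISH had 6, 1 and 4, of which 3, 1 and 4 lay from 1000 to 1499, and 1, 0 and 0 from -500 to 499. SOCS4, SOCS5, SOCS6 and SOCS7 had at most 3 fragments in any of these libraries. The upstream stretch of SOCS6 from -750 to -501 had 0 MethylCap fragments in each line, where RRBS read 52.4% in PC3.

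At the SOCS CpGs outside CCGG and TCGA, MBD-seq and RRBS of the same line were set side by side. With MethylCap, CpGs at most 20% methylated lay under a fragment in 4.48% of 446 (HCT15), 1.18% of 425 (DU145) and 0.837% of 478 (PC3), and CpGs at least 80% methylated in 72.4% of 58, 57.1% of 7 and 89.7% of 39. With MethylCollector Ultra the shares were 0.448% and 93.1% in HCT15 and 4.60% and 97.4% in PC3. With MethylCollector they were 2.24% and 84.5% in HCT15 and 0.0% and 76.9% in PC3, and with MethylMagnet 0.673% and 51.7%, and 7.32% and 82.1%. In HCT15 and PC3 the 4 kits thus covered most of the highly methylated CpGs of the SOCS windows and few of those at most 20% methylated. CpGs between 20% and 80% lay under a fragment in 2.63% to 39.5% of 38 in HCT15 and in 29.6% to 40.7% of 27 in PC3.

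With MethylMiner the shares were 70.9% and 79.3% in HCT15, 37.9% and 0.0% in DU145 and 46.2% and 46.2% in PC3. Both classes were thus covered to a like degree in HCT15 and PC3. CpGs under the same fragment are not independent, and most of the highly methylated ones belong to SOCS3, so no test is given. Over all CpGs of the genome outside CCGG and TCGA, MethylCap covered 10.3% and 84.0% in HCT15, 5.35% and 34.8% in DU145 and 6.43% and 45.2% in PC3. MethylMagnet covered 1.38% and 13.3% of them in HCT15 and 4.35% and 20.2% in PC3. With MethylCollector the shares were 2.38% and 35.5%, and 1.62% and 15.7%, and with MethylCollector Ultra 4.82% and 49.8%, and 6.71% and 42.5%. In HCT15 and PC3, MethylMagnet, MethylCollector and MethylCollector Ultra thus covered a smaller share of the highly methylated CpGs genome-wide than in the SOCS windows.

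**Figure D5:**
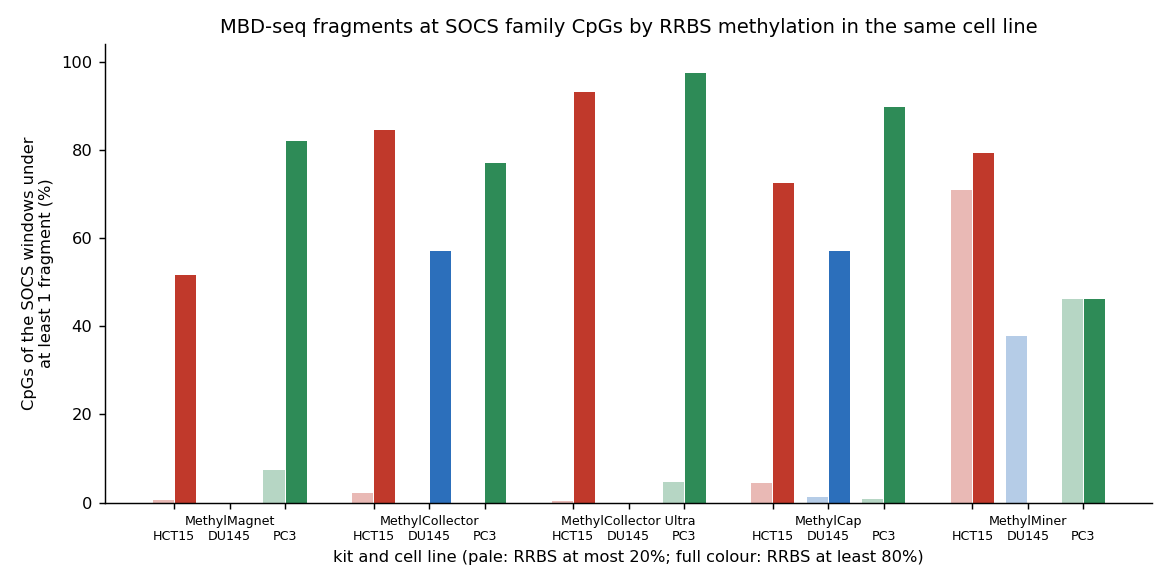
Share (%) of CpGs in the SOCS windows, outside CCGG and TCGA, that lay under at least 1 MBD-seq fragment, by kit and cell line, for CpGs at most 20% methylated (pale bars) and at least 80% methylated (full bars) by RRBS in the same line. MethylCap in PC3 stands at 0.837% and 89.7%, and MethylMiner in PC3 at 46.2% in both classes.

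The other genes of the pathway were taken from lists of 60 genes that hold cytokines, their receptors, Janus kinases, STAT factors, other inhibitors and partners of the SOCS box. Of these, 47 could be compared between HCT15 and DU145, where 6 were called higher in HCT15 and 2 in DU145 at 25 points, beside the 11.8% and 1.63% of all windows. Of 41 compared between HCT15 and PC3, 5 were called higher in HCT15 and 0 in PC3, beside 12.4% and 1.44%. Of 40 between DU145 and PC3, 3 were called higher in DU145 and 1 in PC3, beside 4.86% and 2.94%. The counts of genes higher in HCT15 were thus at the background, and the others rest on at most 3 genes. The median differences over the lists, 0.107, 0.510 and 0.020 points, stood beside -0.229, 0.116 and 0.309 over all windows. The called genes came from the lists of 11 cytokines and 25 receptors, and 0 of the 4 Janus kinases, 7 STAT factors, 9 other inhibitors and 4 SOCS box partners were called, of which between 2 and 9 per list could be compared. With so few genes per list, nothing particular to a list is read from these counts.

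The window means that follow are over the CpGs covered in each line, which differ between lines, and the differences are over CpGs shared by 2 lines. Among the receptors, OSMR, a receptor subunit for oncostatin M, had means of 91.8%, 12.3% and 23.4% in HCT15, DU145 and PC3 (n = 30, 34 and 50 CpGs), and HCT15 was 81.4 points above DU145 and 73.5 above PC3. GHR, the growth hormone receptor, had 94.3%, 45.1% and 17.4% (n = 9, 21 and 16), and HCT15 was 32.1 points above DU145 and 81.4 above PC3. IL12RB2, a subunit of the interleukin-12 receptor, had 97.4%, 28.3% and 43.1% (n = 32, 26 and 32), and HCT15 was 69.6 points above DU145 and 54.4 above PC3. CSF3R, the receptor of granulocyte colony-stimulating factor, had 71.3%, 97.5% and 57.6% (n = 11, 10 and 11), and DU145 was 40.7 points above PC3. HCT15 was the highest line at 3 of these 4 genes.

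Among the cytokines, IL6 had 83.1%, 20.8% and 27.3% in HCT15, DU145 and PC3 (n = 10, 14 and 14 CpGs), and HCT15 was 59.8 points above DU145 and 51.3 above PC3. CTF1 had 95.5%, 49.9% and 37.1% (n = 27, 23 and 23), and HCT15 was 44.8 points above DU145 and 57.6 above PC3. IL13 had 93.1%, 44.9% and 82.1% (n = 41, 42 and 36), and HCT15 was 54.5 points and PC3 42.5 points above DU145. LIF, which signals through the same receptor subunit as interleukin-6, had 14.2% in HCT15 (n = 56) and 95.7% in DU145 (n = 47), and no covered CpG in PC3.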

How the data were processed

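MBD-seq was done on 15 libraries and RRBS on 3. For MBD-seq, read pairs were aligned by the authors with Bowtie (hg19) and reduced to unique pairs without duplicates, and the deposited signal is the unscaled depth (coverage) of fragments. For RRBS, the authors deposited 2 read counts for each CpG, methylated and total, as the sum of both strands and with at least 6 reads. The aligner and enzyme of the RRBS are not given in the sources used here.

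Fragments in a window were the depth at its start plus all later rises. CpGs with at least 10 reads were used, and read numbers above 2000 were scaled down to 2000 for Fisher's test. Islands were found on GRCh37 in windows of 200 bp with at least 50% GC and an observed to expected CpG ratio of 0.6. Scripts were tested on simulated data and used scipy 1.17.1, numba 0.67.0, numpy 2.4.6, pysam 0.24.0, pandas 2.3.3, matplotlib 3.10.9 and samtools 1.23.1 under Python 3.11.15.

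The members, lists and tests were chosen with earlier results of these data known. Named were all members, up to 4 genes per list with the largest window difference of at least 25 points, the 3 windows nearest to a member differing by 25 points, and per member the called CpG with the largest difference in each pair. Such CpGs that lay in CCGG or TCGA, found at SOCS1, SOCS6 and SOCS7, were left unnamed. The alternatives were at least 6 or 20 reads, pooled reads, CpGs covered in all lines, 1 kb on each side, 20 points, adjusted p alone, the other kits, another scale, windows with at least 1 fragment, CpGs outside CCGG and TCGA, the canonical start and lines paired within kits. The last 3 were added after seeing the data.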

Additional observations from a re-analysis of the deposited data

How the results depend on the processing

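Of the recomputed values that answer a comparison, 109 stayed within the spread or within 1.5 times the count and 8 moved. Of those of single genes, 319 stayed and 117 moved. A reversal was looked for only in RRBS window differences of at least 25 points, and none was seen. Directions of MBD-seq fragments were not part of these counts and changed with the kit. At SOCS3, HCT15 stood at 7.63 times DU145 with MethylCap and 0.644 times with MethylMiner, neither called. With CpGs outside CCGG and TCGA, the pathway genes higher in DU145 than in HCT15 went from 2 to 1, the SOCS CpGs higher in DU145 than in HCT15 from 4 to 1 and those higher in DU145 than in PC3 from 9 to 5. With at least 20 reads, the last 2 counts were 2 and 3. The share of CpGs at least 80% methylated that lay under a MethylCap fragment went from 27.3% to 57.1% in DU145 and from 67.2% to 89.7% in PC3 outside CCGG and TCGA. With MethylMiner in place of MethylCap, the members called between HCT15 and PC3 went from 0 of 5 tested to 1 of 8. The cause was not tested. Each line had 1 library per assay, so no replicate could be left out. Pairing the lines within kits, added after seeing the data, could not reach 0.05 with 5 kits and gives no count of calls. The depth limits MBD-seq most in DU145, and RRBS is silent where no CpG had 10 reads, as at the SOCS1 coding stretch and the CISH promoter of DU145.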
